A study of Mus musculus with 14 samples.

Results

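The tumours described here are the leukocyte-poor ones among those grown from Res 499, a subline of the mouse melanoma line B16-F10 that the labels call resistant to radiation given together with CTLA4 blockade. They are 3 of the 7 Res 499 tumours and 3 of the 14 tumours of the series, and they were set against 4 control tumours, which the labels call sensitive to the therapy. All 7 tumours of the comparison were measured on the same array design, which also held the 4 other Res 499 tumours and 1 tumour of a further resistant subline, Res 177. The 3 tumours are Res 499 replicates 4, 6 and 7, and the controls are control replicates 2, 3, 4 and 5; the numbers follow the order of deposition and only name a tumour, and control replicate 1 was on another array design that is not used here. Both groups came from B16-F10 cells put under the skin of C57BL/6 mice in Matrigel. The protocol in the labels has a tumour on each flank, 20 Gy to the right flank on day 8 and the CTLA4-blocking antibody 9H10 on days 5, 8 and 11; whether the profiled tumours were themselves treated is not given in the sources used here. Res 499 is a single subline, so its values cannot separate resistance from other properties of that subline, and the labels do not say that each tumour came from its own mouse, so the spread between tumours may be partly technical.

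A solid tumour in mouse skin holds melanoma cells together with host cells, among them leukocytes, fibroblasts and vessel cells. RNA of the whole tumour mixes them all, and a subline whose tumours draw in more leukocytes will show higher leukocyte genes in bulk whatever its melanoma cells do. Comparing tumours of like leukocyte content leaves the leukocyte genes level between the groups. In bulk samples, fewer cells of a type and less RNA per cell cannot be told apart.

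Leukocyte content was taken as the mean log2 value of Ptprc (the pan-leukocyte phosphatase CD45), Cd53, Laptm5, Coro1a and Cd52, less the mean of the 4 controls, and Res 499 tumours at 0.75 or below were kept. The 3 tumours were thus chosen by these 5 measured genes, whose values are a description. Content was 0.29, 0.20 and -0.39 in Res 499 replicates 4, 6 and 7, and 0.23, -0.14, -0.16 and 0.06 in control replicates 2 to 5. It was 1.28, 1.68, 1.71 and 1.39 in Res 499 replicates 1, 2, 3 and 5. The limit thus lies in a gap between 0.29, just inside, and 1.28, just outside. Ptprc was at 5.99 ± 0.41 (SD, n = 3) in the leukocyte-poor tumours, 5.99 ± 0.38 (SD, n = 4) in controls and 8.01 ± 0.49 (SD, n = 4) in the other Res 499 tumours. Matching was not perfect: Res 499 replicate 7 lay below every control in content, and replicate 6 had the highest Cd53 of the 7 tumours.

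**Figure D1:**
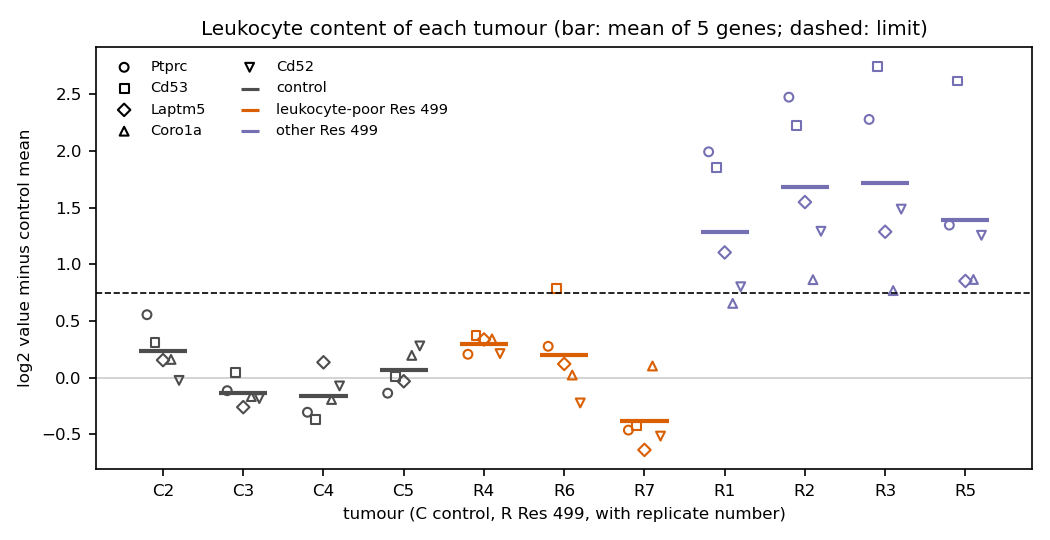
Leukocyte content of the 4 control tumours (C), the 3 leukocyte-poor Res 499 tumours and the 4 other Res 499 tumours (R), with replicate numbers. Open symbols are the log2 values of the 5 genes less their control mean, bars are the mean of the 5, and the dashed line is the limit of 0.75; no tumour lies between 0.29 and 1.28.

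The melanocyte genes Mitf, Sox10, Tyr, Tyrp1, Dct, Pmel and Mlana lay between 10.7 and 13.8 in all 7 tumours, where the median gene was at 6.37, so the tumours carried their labelled lineage. Cd3e, a chain of the T cell receptor complex, was at 5.91, 5.57 and 5.63 in Res 499 replicates 4, 6 and 7 and at 5.50 to 6.01 in controls. The 20 macrophage and monocyte markers had a median change of -0.01, with 10 positive and 10 negative, and list means of 0.24, -0.04 and -0.42 in the 3 tumours against -0.20 to 0.43 in controls. Adgre1, the macrophage protein F4/80, was at 6.67 ± 0.50 (SD, n = 3) and 6.72 ± 0.38 (SD, n = 4). These leukocyte lists follow the choice of tumours and are no result. Fibroblast and matrix markers were not matched: 12 of 14 were lower and none passed the test, with a median of -0.34 and list means of -0.49, -0.21 and -0.57 against -0.32 to 0.38 in controls. Dcn, which encodes the matrix proteoglycan decorin, was at 6.01, 7.36 and 6.84 against 8.44, 6.97, 7.76 and 7.54, and Col1a1, a chain of type I collagen, at 7.58, 7.97 and 6.87 against 9.23, 7.95, 8.78 and 8.31. Replicate 6 overlapped the controls in both genes. Other host-cell lists also leaned lower with no call: 8 of 8 adipocyte, 10 of 11 skeletal muscle and 12 of 14 endothelial markers were negative, with medians of -0.11, -0.10 and -0.12.

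Between these tumours, 78 genes were higher (0.469%) and 34 lower (0.204%) in leukocyte-poor Res 499 than in control, 112 in all or 0.673% of the 16635 tested by limma at an adjusted p of 0.05. An unadjusted p under 0.05 was found for 14.5% of genes, 6.62% upward and 7.85% downward. In all 112 the ranges of the groups did not overlap, which held for 13.6% of tested genes. The median size of the called changes was 0.76 on the log2 scale, and 27 genes changed by 1 or more, 18 of them upward. The number rests on single tumours. It was 32, 5 and 6 without Res 499 replicates 4, 6 and 7, and 48, 24 and 239 without control replicates 2, 4 and 5. The genes that passed in each of the 7 fits with 1 tumour left out were Carmil2, Irf4, Mid1 and the predicted gene Gm19389, which was named after its value was seen. With the fibroblast list mean as a covariate 11 genes passed, 7 of them among the 112: Cacna1c, Carmil2, Fscn1, Fto, Gm19389, Irf4 and Mid1. Every other called gene named below lost its call in that fit. With all 7 Res 499 tumours and leukocyte content as a covariate, 26 of the 112 passed, Carmil2 and Phyhipl among them, while Irf4 and Mid1 did not (adjusted p = 0.064 and 0.0885).

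**Figure D2:**
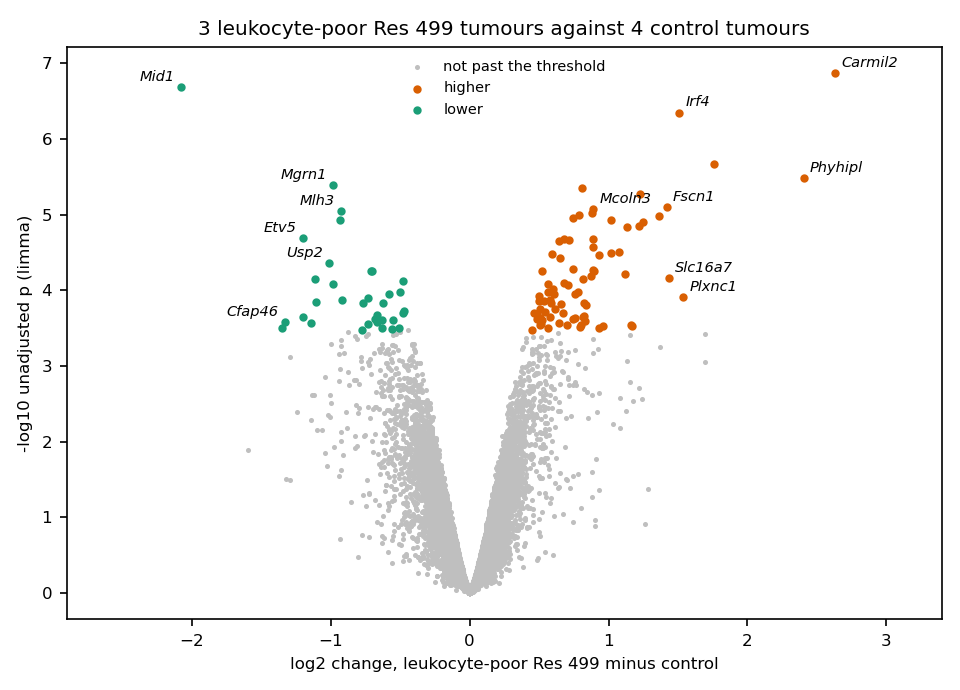
Log2 change of each of 16635 genes in leukocyte-poor Res 499 against control tumours (horizontal) and −log10 of the unadjusted limma p (vertical). Orange and green points are the 78 higher and 34 lower genes past an adjusted p of 0.05; Carmil2 at 2.63 and Mid1 at -2.07 are the farthest on either side.

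The largest rise was that of Carmil2, which encodes a regulator of actin capping protein that is also known from T cell co-stimulation. Its log2 level was 8.15, 9.06 and 8.83 in Res 499 replicates 4, 6 and 7, against 6.05, 5.90, 6.05 and 6.20 in control replicates 2 to 5, a change of 2.63 (SE 0.19, adjusted p = 0.00173) or 6.19-fold. All 3 tumours stood far above every control. Over all 7 Res 499 tumours with no covariate the change was 1.74 (adjusted p = 0.135). Phyhipl was at 8.60, 7.88 and 8.51 against 6.21, 5.27, 6.10 and 6.13, a change of 2.41 (SE 0.25, adjusted p = 0.0106), and passed in 6 of the 7 fits that left out a tumour. A dim second probe set, at 3.44, differed by 0.01, and the mean of both sets by 1.21. With the fibroblast covariate Phyhipl did not pass (adjusted p = 0.0618). Irf4, a transcription factor of lymphocytes and of melanocytes, where it takes part in pigmentation, was at 6.68, 6.47 and 6.96 against 5.29, 5.03, 5.19 and 5.29. Its change of 1.51 (SE 0.12, adjusted p = 0.00249) held with the fibroblast covariate. The 5 B cell markers were all positive, with a median of 0.07 and changes from 0.04 to 0.25, and 2 had separate ranges. Their list means were 0.14, 0.11 and 0.10 in the 3 tumours, above the controls at -0.08 to 0.07. These are dim genes, at 4.99 to 6.48 in the 7 tumours, where the median gene was at 6.37. As a leukocyte list they follow the choice of tumours and are no result. The part of B cells in the Irf4 change was not tested.

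Of the next largest rises, Fscn1 encodes the actin-bundling protein fascin and rose by 1.42 (SE 0.16), from 7.87 ± 0.30 (SD, n = 4) to 9.29 ± 0.18 (SD, n = 3). Plxnc1, the receptor of the semaphorin Sema7a, was at 10.18, 10.20 and 10.28 in the 3 tumours against 9.07, 8.16, 8.27 and 9.22 in controls and rose by 1.54 (SE 0.25). The 3 Res 499 values lay closer together than the controls. Lpar4, a receptor for lysophosphatidic acid, rose by 1.36, and Mgll, the lipase that cleaves monoacylglycerols, by 1.16. The monocarboxylate transporter gene Slc16a7 rose by 1.43, Amdhd1, an enzyme of histidine breakdown, by 1.23, Ralgps2, an exchange factor for Ral GTPases, by 1.22, and the cyclic AMP phosphodiesterase Pde8a by 1.17. Across these 8 genes the adjusted p by limma ran from 0.0111 to 0.0473. Over all 7 Res 499 tumours with no covariate only Lpar4 of the 8 passed by limma (adjusted p = 0.044). The others had adjusted p-values from 0.0513 to 0.565, the highest for Slc16a7, which differed by 0.69. Pde8a and Mgll passed in 2 and 1 of the 7 fits that left out a tumour, and the others in 3 to 5.

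The largest fall was that of Mid1, which encodes a microtubule-bound ubiquitin ligase. It was at 7.56, 7.67 and 7.51 against 9.19, 9.79, 9.88 and 9.74, a change of -2.07 (SE 0.16, adjusted p = 0.00173). The groups are far apart, but a second probe set of Mid1, at a mean level of 7.80, differed by only -0.20, and the mean of both sets by -1.14, so the size depends on the probe set. Mgrn1, a ubiquitin ligase whose loss darkens mouse coats, was at 9.80, 9.56 and 9.48 against 10.45, 10.65, 10.71 and 10.57 and fell by 0.98 (SE 0.10, adjusted p = 0.0106). Mlh3, a MutL homologue of mismatch repair, was at 7.69, 7.66 and 8.06 against 8.74, 8.80, 8.71 and 8.67 and fell by 0.93 (SE 0.11, adjusted p = 0.0116). It was the one called gene among 8 mismatch repair genes tested, whose median change was -0.08.

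Of the other large falls, Erbb3, the neuregulin co-receptor, was at 9.32, 8.94 and 9.32 against 10.28, 10.54, 10.87 and 9.89 and fell by 1.20 (SE 0.21). Mcam, the melanoma cell adhesion molecule, fell by 1.14 (SE 0.20), Lgi4, a secreted protein of Schwann cells, and the engulfment receptor Megf10 changed by -1.10 and -1.35. Cfap46, a protein of the ciliary axoneme, changed by -1.33, and Syne1, which encodes the nuclear envelope protein nesprin-1, by -1.11. Of the other 58 probe sets of Syne1, 55 were also lower. Ugt8a, the ceramide galactosyltransferase, changed by -0.93, and Pcdhb18, one of a cluster of similar protocadherin genes whose probes may be shared, by -0.98. Across these 8 genes the adjusted p by limma ran from 0.0116 to 0.0483. Ugt8a and Pcdhb18 passed in 4 and 3 of the 7 fits that left out a tumour, and the others in 1 or 2. With the fibroblast list mean as a covariate none of the 8 passed, at adjusted p-values from 0.0842 to 0.333, while their changes ran from -0.89 to -1.40. With all 7 Res 499 tumours and no covariate, only Lgi4 and Cfap46 of the 8 passed by limma (adjusted p = 0.00636 and 0.0176). The others had adjusted p-values from 0.0526 to 0.407, and among them Megf10 and Mcam differed by -0.71 and -0.71.

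The 4 Res 499 tumours of high leukocyte content, which entered the filter and the choice of probe sets but not the fit, lay mostly on the same side. Their mean was on the same side of the control mean for 111 of the 112 genes, the exception being Colec12, a scavenger receptor gene (6.85 in control, 6.18 in leukocyte-poor and 7.44 in other Res 499 tumours). The 112 genes were chosen for a difference from these same control tumours, so this is no independent test. The share of all tested genes on the same side was not counted. How many of all tested genes lay past every control in a single tumour was not counted, so the counts that follow have no background. Replicates 1, 3 and 5 lay past every control in 106, 95 and 92 of the 112 genes, and replicate 2 in 65. Replicate 2 stood within the control range for several of the largest changes: Carmil2 was at 6.16, Mid1 at 9.60, Mgrn1 at 10.52, Fscn1 at 7.72 and Ralgps2 at 5.18. In the same tumour Plxnc1 (10.17), Mcoln3 (9.67) and Etv5 (8.31) lay past every control. Carmil2 was at 8.07, 7.66 and 6.62 in replicates 1, 3 and 5, each below the 3 leukocyte-poor tumours. The single Res 177 tumour lay past every control in 86 of the 112 genes, but not for Carmil2 at 5.93.

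**Figure D3:**
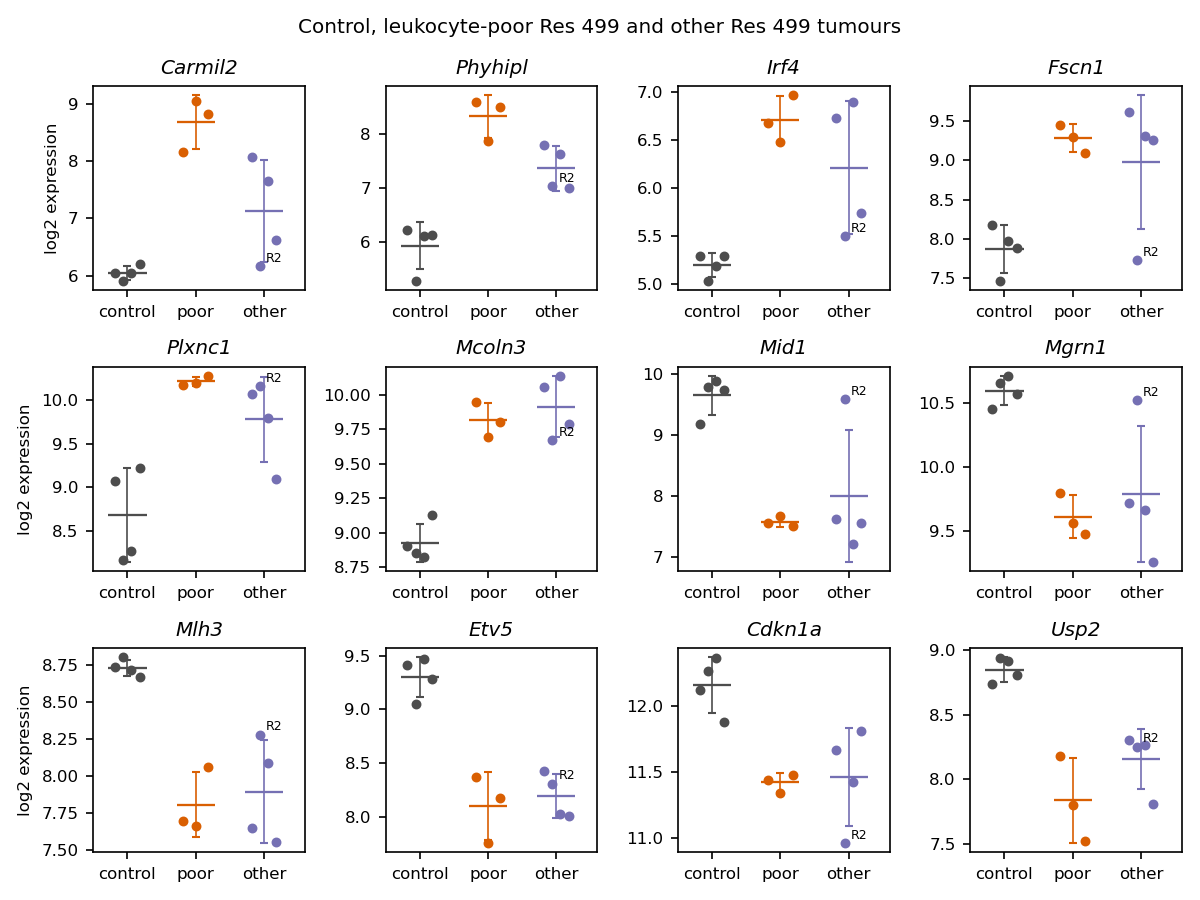
Log2 expression of 12 genes in control (n = 4), leukocyte-poor Res 499 (n = 3) and other Res 499 tumours (n = 4); points are tumours, bars the mean and whiskers the SD. R2 marks Res 499 replicate 2, which lies with the controls for Carmil2 (6.16) and Mid1 (9.60) and with the other Res 499 tumours for Plxnc1, Mcoln3 and Etv5.

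Pigment and lysosome genes included several small rises against high levels. Melanosomes are lysosome-related organelles, and MITF drives genes of both. Gpr143, a receptor of the melanosome membrane, was at 9.26, 9.42 and 9.57 against 8.78, 8.93, 8.80 and 8.71 and rose by 0.61 (SE 0.10, adjusted p = 0.0340). It was the one called gene of 17 melanocyte lineage genes, of which 12 were positive with a median of 0.14. In that list the ranges did not overlap for 8 higher genes and 1 lower, where 6.75% and 6.82% of all tested genes had such ranges upward and downward. Trpm1 differed by 1.08 (SE 0.27, adjusted p = 0.110) and Oca2, a melanosome transporter, by 0.65 (SE 0.17, adjusted p = 0.126), neither past the threshold. Pmel, the fibril protein of melanosomes, differed by 0.21, Mitf itself by -0.02 and Sox10 by -0.30. Sytl2, a melanosome trafficking gene outside the list and among the largest rises, rose by 1.25. Rab38, which acts in the same traffic, rose by 0.57, and Cdk2, a cell cycle kinase that MITF is known to drive in melanoma, by 0.56, from 11.73, 11.94, 11.89 and 11.97 to 12.37, 12.46 and 12.51. Rab38 and Cdk2, and Smpd1 and Atp6v0b below, were chosen after their values were seen.

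Among 24 lysosome and proton pump genes, 18 were positive with a median of 0.07, and 1 was called. That gene was Mcoln3, an endolysosomal cation channel, at 9.95, 9.69 and 9.80 against 8.90, 8.85, 8.82 and 9.13 in controls, a rise of 0.89 (SE 0.10, adjusted p = 0.0116). Of the list, 8 genes lay above every control in all 3 tumours, as did 6.75% of all tested genes. Outside it, Smpd1, the lysosomal acid sphingomyelinase, rose by 0.78 (SE 0.09, adjusted p = 0.0116), and its second probe set differed by 0.70. Atp6v0b, a membrane subunit of the V-ATPase, was at 11.92, 11.91 and 12.08 against 11.49, 11.49, 11.50 and 11.40 and rose by 0.50 (SE 0.08, adjusted p = 0.0351). Its promoter is printed because it holds 2 copies of the E-box CACGTG, the core of the element through which TFEB and MITF bind lysosome genes; the capitals mark them, at -36 and -18 from the start of transcription. The sequence is from RefSeq on GRCm38.p6 and runs from 250 bases before to 50 after the start. CACGTG, the same on both strands, is in 7.15% of 32851 such promoters, and a match here is a string of letters, not a measured site. It is in 14 of the 121 promoters of called genes, both of genes that rose, such as Mgll, and of genes that fell, such as Mgrn1.
Atp6v0b, chr4:117887280-117887579, minus strand: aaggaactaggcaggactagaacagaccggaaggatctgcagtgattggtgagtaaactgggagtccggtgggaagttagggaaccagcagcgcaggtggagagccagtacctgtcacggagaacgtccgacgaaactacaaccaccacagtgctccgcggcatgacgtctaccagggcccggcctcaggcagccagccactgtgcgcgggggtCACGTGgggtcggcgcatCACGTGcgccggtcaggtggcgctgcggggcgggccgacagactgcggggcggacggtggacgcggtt

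MAPK signalling from growth factor receptors and from mutant kinases induces the ETS factors Etv1, Etv4 and Etv5 and the Sprouty and Spred proteins that hold it back. Etv5 was at 8.37, 7.75 and 8.17 against 9.41, 9.05, 9.46 and 9.28, with no overlap, and fell by 1.20 (SE 0.15, adjusted p = 0.0149). A dimmer second probe set, at 5.40, differed by -0.09, and the mean of both sets by -0.65. With the fibroblast covariate Etv5 did not pass (change -1.15, adjusted p = 0.172). Of 20 genes of this kind, 12 were negative with a median of -0.21, and Etv5 was the one called. Ranges did not overlap for 8 lower members and 3 higher, beside 6.82% and 6.75% of all tested genes. Spry4 differed by -0.56 (SE 0.14), Etv4 by -0.42 (SE 0.10) and Spred1 by -0.42 (SE 0.09), with adjusted p-values of 0.112, 0.114 and 0.0756. Dusp6, the phosphatase that acts on ERK, was at 11.60 ± 0.12 (SD, n = 3) and 11.59 ± 0.21 (SD, n = 4), a difference of 0.01 (SE 0.12) whose sign turned when arrays were quantile normalized again (-0.0209). The list was thus not lower throughout.

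Target genes of p53 lay lower in part. Cdkn1a, which encodes the cell cycle inhibitor p21, was at 11.44, 11.34 and 11.48 against 12.11, 12.26, 12.36 and 11.88 and fell by 0.73 (SE 0.12, adjusted p = 0.0360); it passed in 1 of the 7 fits that left out a tumour. It was the one called member of 18, of which 14 were negative with a median of -0.11. The kinase gene Plk2 differed by -0.88 (SE 0.16, adjusted p = 0.0515), Zmat3 by -0.58 (SE 0.12, adjusted p = 0.0660) and Ccng1 by -0.48 (SE 0.15, adjusted p = 0.183). Mdm2, Bbc3 and Pmaip1, which encode the ubiquitin ligase of p53 and a pair of death proteins, differed by -0.14, -0.05 and 0.03. None of the 23 listed cell cycle genes was called and their median was 0.03, although Cdk2 above and Ccna1, a cyclin gene named after its value was seen (0.54, adjusted p = 0.0438), lie outside that list and rose. Mki67, a marker of dividing cells, differed by -0.14 (SE 0.09, adjusted p = 0.551).

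Interferon-stimulated genes differed among the 3 tumours themselves. Type I interferons and interferon gamma signal through JAK kinases to STAT factors, which switch on antiviral genes, GTPases and antigen presentation. The list mean of 31 such genes was 0.87 in Res 499 replicate 4, -0.01 in replicate 6 and 0.04 in replicate 7, against -0.15 to 0.17 in controls. Replicate 4 lay above every control in 27 of the 31 genes and below in 0. Replicates 6 and 7 lay above every control in 7 and 9 genes and below every control in 9 and 8. Interferon-inducible GTPases were at 0.90, -0.45 and -0.44 against -0.59 to 0.50, and replicate 4 exceeded every control in 10 of 11, replicates 6 and 7 in 0. These counts of single tumours have no share over all tested genes beside them, so those of replicates 6 and 7 are not read as a response. Usp18, the protease that removes ISG15 from proteins, was at 9.53, 7.34 and 7.79 against 7.59, 7.11, 7.44 and 7.75 in controls. Leukocyte content of replicates 4, 6 and 7 was 0.29, 0.20 and -0.39 and their macrophage list means were 0.24, -0.04 and -0.42; the part of either in this split was not tested.

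The group median of the interferon-stimulated list was 0.29, with 25 of 31 positive, and it was 0.05 without replicate 4. Oas1b, an oligoadenylate synthetase gene, was the one member called. It was at 7.33, 7.08 and 6.94 against 6.05, 6.28, 6.35 and 6.23, a rise of 0.89 (SE 0.11, adjusted p = 0.0149), so that replicates 6 and 7, with list means near 0, also lay above every control. Rtp4 was at 8.48, 7.35 and 7.40 against 6.32 to 7.23, likewise above every control, with a difference of 1.03 (adjusted p = 0.152) that did not pass. Ifi27, Herc6 and Xaf1 also had all 3 tumours above every control, with no call. In the list the ranges thus did not overlap for 5 higher members and 0 lower, beside 6.75% and 6.82% of all tested genes. Irf7, the interferon regulatory factor that amplifies the response, was at 7.81, 6.85 and 6.78 against 6.61 to 6.96, and Ifit1, an antiviral RNA-binding protein, at 8.03, 6.57 and 6.62 against 6.53 to 7.28. Neither passed (adjusted p = 0.477 and 0.912).

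**Figure D4:**
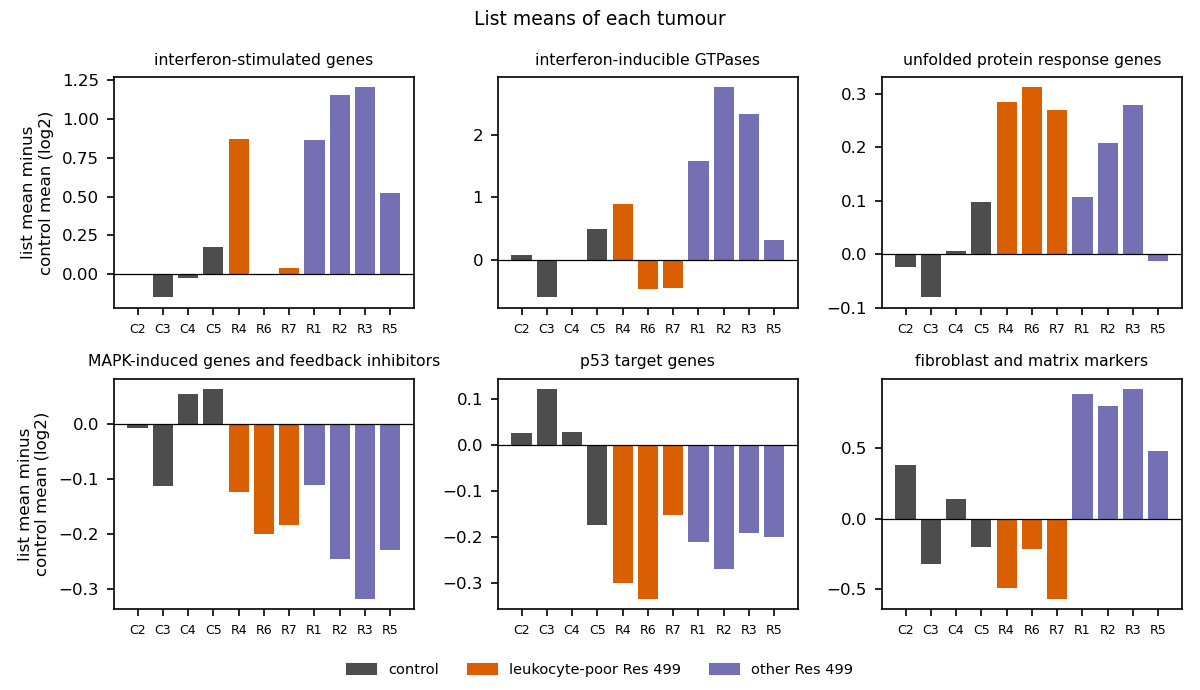
Mean of 6 gene lists in each tumour, less the control mean, on the log2 scale; each panel has its own vertical scale. Among the leukocyte-poor Res 499 tumours, replicate 4 (R4) alone is high for interferon-stimulated genes (0.87) and GTPases (0.90), while all 3 are above the controls for unfolded protein response genes.

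No chemokine or antigen presentation gene of the lists was called in these tumours. The tumours were chosen by leukocyte genes, and the part of that choice in the levels of these immune genes was not tested. Cxcl10, an attractant of activated T cells, was at 9.89, 9.46 and 8.93 against 8.17, 7.61, 8.32 and 8.90, a difference of 1.18 (SE 0.29, adjusted p = 0.115), with replicate 7 next to the highest control. Cxcl9, which is induced by interferon gamma and binds the same receptor, was at 9.20, 6.88 and 6.33 against 8.79, 7.17, 8.43 and 9.23, where the groups overlapped. Over 19 chemokines the median was 0.09, with 12 positive. MHC class I presentation genes had a median of -0.05 (6 of 13 positive) and MHC class II genes of -0.02 (4 of 9 positive). In the other Res 499 tumours, of higher leukocyte content, the medians over control were 0.98 and 0.79. Single tumours differed within both sets. Class I list means were 0.61, -0.28 and -0.32 in Res 499 replicates 4, 6 and 7, against -0.47 to 0.61 in controls. They were 0.85, 1.47, 1.28 and 0.48 in replicates 1, 2, 3 and 5, so that replicate 5 lay within the control range. B2m, the class I light chain, differed by -0.05 (SE 0.11, adjusted p = 0.889). Cd274 encodes PD-L1, a ligand that restrains T cells through PD-1. It was at 8.54, 8.44 and 8.18 against 7.77, 7.70, 7.91 and 8.29, a difference of 0.47 (SE 0.15, adjusted p = 0.193) with overlapping ranges, and at 8.78 ± 0.42 (SD, n = 4) in the other Res 499 tumours. Over 19 checkpoint ligands the median was 0.02, with 10 positive and no call.

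The promoters of Cxcl10 and Ifit1 are printed because replicates 6 and 7 lay above every control for Cxcl10, replicate 7 only just, but not for Ifit1. Capitals mark the interferon-stimulated response element, searched on both strands as GAAA, 2 bases of any kind and GAAA again. Cxcl10 holds 1 copy at -213 and Ifit1 holds 2, at -104 and -85; 3.44% of the 32851 RefSeq promoters of this length (GRCm38.p6) hold the element.
Cxcl10, chr5:92348840-92349139, minus strand: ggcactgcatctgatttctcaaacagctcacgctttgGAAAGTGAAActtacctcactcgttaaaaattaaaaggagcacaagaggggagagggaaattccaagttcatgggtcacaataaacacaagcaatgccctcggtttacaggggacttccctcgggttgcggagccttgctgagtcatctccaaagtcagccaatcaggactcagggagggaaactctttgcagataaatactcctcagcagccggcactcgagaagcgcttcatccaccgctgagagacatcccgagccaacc
Ifit1, chr19:34640639-34640938, plus strand: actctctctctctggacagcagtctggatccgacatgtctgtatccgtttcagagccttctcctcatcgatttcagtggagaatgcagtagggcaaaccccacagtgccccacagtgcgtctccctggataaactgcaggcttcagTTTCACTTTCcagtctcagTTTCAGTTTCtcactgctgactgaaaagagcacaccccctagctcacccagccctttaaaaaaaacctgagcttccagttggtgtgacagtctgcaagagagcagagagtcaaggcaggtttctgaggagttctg

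Genes of the unfolded protein response, by which cells raise chaperones when proteins misfold in the endoplasmic reticulum, were at higher values in most members. Of 17 genes 15 were positive, with a median of 0.27 beside 0.01 over all tested genes, and 11 had all 3 tumours above every control, as did 6.75% of all tested genes; none passed the test over all genes, so no member is said to have risen. List means were 0.28, 0.31 and 0.27 in replicates 4, 6 and 7 against -0.08 to 0.10 in controls. Ddit3, which encodes the stress factor CHOP, was at 9.59, 10.03 and 9.36 against 8.78, 8.86, 8.71 and 9.25 (adjusted p = 0.0939). Sdf2l1, a cofactor of the chaperone BiP, was at 11.16, 11.11 and 11.29 against 10.53, 10.55, 10.88 and 10.65 (adjusted p = 0.0619). Hspa5, BiP itself, was at 10.63, 10.75 and 10.60 against 10.27, 10.31, 10.45 and 10.58. Leaving out any of the 7 tumours gave list medians from 0.23 to 0.32. Atf6, a sensor of the same response that the list does not hold, rose by 0.84 (SE 0.14, adjusted p = 0.0373), from 10.34, 9.69, 9.99 and 10.12 to 10.81, 10.89 and 10.91; it was named after its value was seen.

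Other lists held 1 or 2 called genes. Usp2, a deubiquitinase that cycles with the circadian clock, was at 8.18, 7.80 and 7.53 against 8.74, 8.94, 8.91 and 8.80 and fell by 1.01 (SE 0.14, adjusted p = 0.0228). It was the one called gene of 19 clock genes, whose median was 0.02. That list was not flat: ranges did not overlap for 5 lower members and 2 higher, beside 6.82% and 6.75% of all tested genes. Per3 and Dbp, which follow the same cycle, are among them and differed by -0.17 and 0.24. Of 27 semaphorins, plexins and neuropilins 21 were negative with a median of -0.09, while Plxnc1 and Sema6d, a transmembrane semaphorin, rose by 1.54 and 1.12. Sema6a and Sema6b differed by -0.94 and -0.75 (adjusted p = 0.0660 and 0.0545). Plau, the urokinase plasminogen activator, was at 8.40, 8.25 and 7.86 against 7.23, 7.16, 7.43 and 7.28 and rose by 0.90 (SE 0.13, adjusted p = 0.0247), with a median of -0.05 over the 10 genes of its system. Cdhr4, a cadherin-related gene, fell by 0.71, and with Cfap46 it was the called part of 18 cilium genes, whose median was 0.01. Lpin1, a phosphatidate phosphatase, differed by -0.73 (adjusted p = 0.0533). For oxidative phosphorylation 17 of 20 genes were positive (median 0.07), and for hypoxia and glycolysis 11 of 19 (median 0.02), with no call in either.

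**Figure D5:**
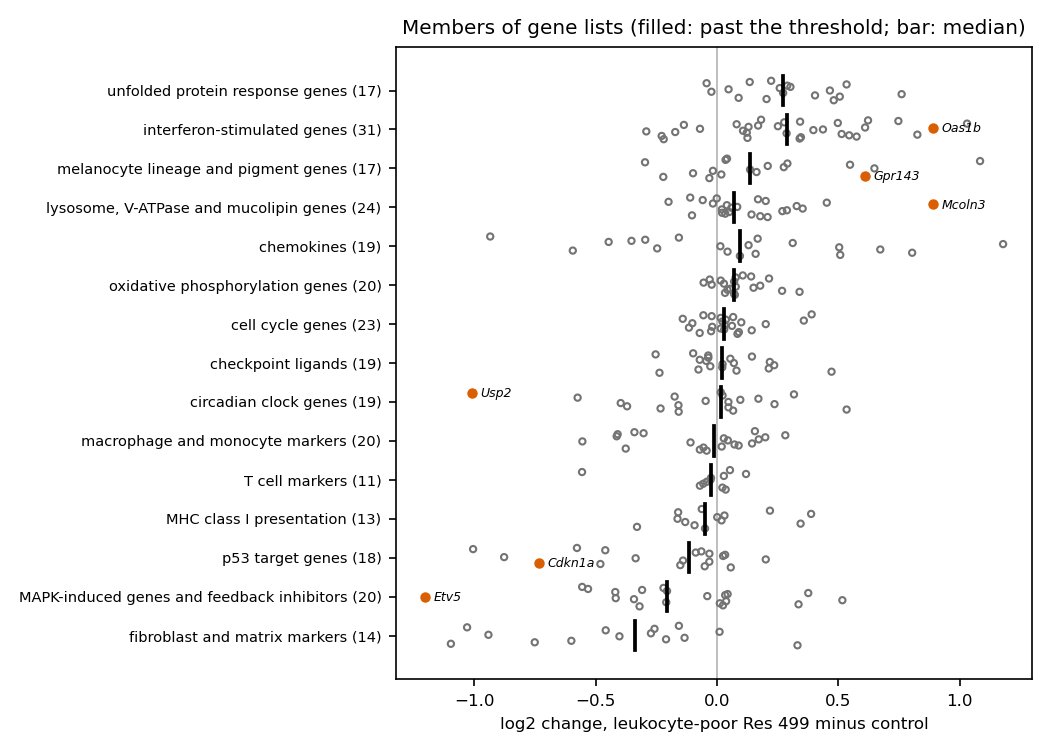
Log2 change of each tested member of 15 gene lists in leukocyte-poor Res 499 against control tumours; the number tested stands after each name, filled points passed the threshold and bars are medians. Unfolded protein response genes (median 0.27) lie mostly above 0 and fibroblast markers (median -0.34) mostly below.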

How the data were processed

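Total RNA of whole tumours was measured on Affymetrix arrays. The deposited values are log2 expression per probe set and tumour, which the authors made by RMA (background correction, quantile normalization, probe summary) using oligo, per the submitters' processing notes; no version or probe annotation is given in the sources used here. Array medians lay between 5.70 and 5.80, and correlations between arrays from 0.977 to 0.993. The number of tumours limits the precision.

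Of 41345 probe sets, 23521 had 1 gene symbol, 1814 several and 16010 none; those with 1 were used, with the set of highest mean per gene (22180 genes). Genes in the lowest 25% by mean over 12 arrays were dropped and 16635 were fitted over the 7 arrays of the comparison by limma 3.58.1 (lmFit, then eBayes; R 4.3.3), with Benjamini-Hochberg adjusted p-values; 0.05 was the threshold. The p-values take the choice of tumours as given. The procedure was tested on simulated data. Members and lists were chosen with earlier results of these data known. Named genes are the 12 largest rises and falls past the threshold with separate ranges, up to 4 called members per list, and a fixed set; predicted models, small RNAs, antigen receptor segments and olfactory, vomeronasal and taste receptors were not ranked by size. Alternatives changed the filter, probe set, normalization, prior, weights, threshold and the tumours in the fit; the fibroblast covariate was added after seeing the data.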

Additional observations from a re-analysis of the deposited data

Results flagged for a closer look

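Among the 55 named genes, 2 had a control tumour far from the other 3, about what chance gives, since it marks about 1 in 20 such groups. Phyhipl was at 5.27 in control replicate 3 and at 6.10 to 6.21 in the other controls. Adgre1 was at 7.28 in control replicate 2 and at 6.50 to 6.57 in the others.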

How the results depend on the processing

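The count of 112 genes was 258 with array weights, 338 at a threshold of 0.10, 71 with arrays centred on the median, 26 with all 12 arrays in 4 groups, 27 with all 7 Res 499 tumours and leukocyte content as a covariate, 59 with all 7 and no covariate, and 11 with the fibroblast covariate. Of those 26, 27, 59 and 11 genes, 26, 26, 27 and 7 were among the 112. Leaving out 1 tumour gave 5 to 239. No filter, a filter at 50%, the mean of probe sets, a second quantile normalization, a trended robust prior and the next tumour by leukocyte content gave 80 to 130. The higher genes were 78 of 112 but 136 of 258 with array weights and 24 of 59 with all 7 tumours.

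Of the named genes, 44 of 47 tested kept their direction in each of up to 20 alternatives. Much of this was fixed beforehand. Another threshold, filter or prior, or the fit of all arrays by group, leaves the change of a tested gene as it was. Where ranges did not overlap, as in every called gene, leaving out 1 tumour cannot turn the direction. For those alternatives the kept direction is thus no test of the result. Dusp6 turned to -0.0461 with the mean of probe sets, -0.0209 on second quantile normalization, -0.0182 with array weights, -0.0013 with the next tumour added, -0.0068 with the content covariate and -0.128 with all 7 tumours, and ran from -0.0890 to 0.0813 when 1 tumour was left out. B2m turned to 0.0963 with all 7 tumours and ran from -0.151 to 0.0210 when 1 was left out. Ifit1 turned to -0.120 with the fibroblast covariate and ran from -0.353 to 0.373 when 1 was left out. The causes were not tested. No paired analysis was possible because the labels give no replicate numbers.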

Other observations

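Several called genes that no list holds were chosen here after their values were seen. Fto, an RNA demethylase gene, rose by 1.14 (SE 0.14, adjusted p = 0.0121 by limma), at 10.02, 10.20 and 10.35 in the leukocyte-poor tumours against 9.28, 8.87, 9.24 and 8.82 in controls; Res 499 replicate 2 was at 8.82. Of the retinoic acid receptor genes, Rarb rose by 0.93 and Rara fell by 0.51. Klf9, a transcription factor induced by glucocorticoids, rose by 0.89, from 8.22, 8.12, 7.91 and 8.43 to 8.91, 9.06 and 9.20. Ntrk3, a neurotrophin receptor gene, rose by 0.60 and was at 5.85 in the leukocyte-poor, 5.26 in the other Res 499 and 5.25 in the control tumours on average; the difference between the Res 499 sets was not tested. Ifnlr1, a receptor chain for lambda interferons, rose by 0.61, from 5.67 to 6.29.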
